A study of Homo sapiens with 12 samples.

Results

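SR proteins (the SRSF genes) and heterogeneous nuclear ribonucleoproteins (the HNRNP genes) are the main families of proteins that bind pre-mRNA and set which exons are kept, and their own transcript levels were followed here in osteosarcoma cells given NXP800. The group was defined by gene symbol: every SRSF and HNRNP gene apart from numbered pseudogenes, the SR-like proteins TRA2A and TRA2B, and the kinases CLK1 to CLK4, 44 of the 43236 gene symbols in the count tables. Of these 44, 39 had enough counts to be tested. The other 5 were HNRNPCL1, HNRNPCL2, HNRNPCL3, HNRNPCL4 and HNRNPH2, with at most 2 counts in any library. The cells were MNNG/HOS (labelled HOS-MNNG), a chemically transformed derivative of the HOS osteosarcoma line, so a single established line was examined. They were given DMSO, the solvent, or 300 nM of the oral small molecule NXP800, for 6 h or for 24 h, which makes 4 groups of 3 replicates and 12 RNA-seq libraries. Each time point had its own DMSO group, and the comparison at both times was NXP800 against DMSO. The labels do not say that replicates were separate cultures, so the p-values measure the spread between these libraries, which may be technical.

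As background, SR proteins carry RNA-binding domains and a tail rich in arginine and serine, and most of them bind exonic enhancers and promote the use of nearby splice sites. Many hnRNPs bind silencer elements and act against them, and several also package nascent transcripts, export mRNA or set its stability. CLK kinases phosphorylate the arginine-serine tails and so release SR proteins from nuclear speckles. Many genes of these families are known to keep their own level in check by splicing in a poison exon, which sends the transcript to nonsense-mediated decay. In the GENCODE annotation, transcripts labelled for nonsense-mediated decay were listed for 31 of the 39 tested members (79.5%), against 6066 of 13088 tested coding genes (46.4%). Transcripts labelled as retaining an intron were also listed more often, for 30 of the 39 (76.9%) against 7771 of 13088 (59.4%). The number of annotated transcripts per gene was not compared. The counts are sums over a gene, so productive and poison-exon transcripts of a member were not separated here.

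Libraries held between 30810614 and 31947656 counts on genes, a depth at which the spread between replicates and not counting error limits all but the lowest members. Reads that the counter matched to no annotated feature made up 6.66 to 8.14% of a library at 6 h and 2.73 to 3.67% at 24 h. Whether reads in introns are among them is not stated in the sources used here. The sources used here do not say whether libraries of both times were prepared and sequenced together. Time and preparation therefore cannot be told apart in this share. The same limit holds for differences between the 6 h and 24 h responses, though each response was taken against DMSO of its own time. RUNX2 (20.7 to 42.5 CPM, counts scaled to a common library size), COL1A1, SPARC, SPP1 and VIM were present in every library, whereas COL1A2, ALPL, SP7, IBSP and BGLAP were at 0 to 12 counts, so 5 markers of a list of 10 for osteoblasts and mesenchyme were close to absent. Of 10 markers of other cell types, KRT8 and EPCAM were detected (492 to 895 and 5.59 to 10.2 CPM), PECAM1 was at 5 to 29 counts and the other 7 were at 0 to 5. The summed level of both marker lists was lower under NXP800 at 24 h, and at 6 h that of the first list alone lay apart from DMSO. The osteoblast and mesenchymal list summed to 5076 to 5273 CPM in DMSO and 4250.2 to 4402 in NXP800 libraries at 6 h, and to 5941 to 6786 and 3803 to 4649.7 CPM at 24 h. The list for other cell types summed to 588 to 724 CPM in DMSO and 554 to 632 in NXP800 libraries at 6 h, and to 852 to 901 and 503 to 642 CPM at 24 h. VIM, at 3336 to 5888 CPM, made up most of the first sum, and KRT8 made up most of the second. Single markers went both ways. Log2 fold changes of the tested genes in the first list ran from -0.79 to 0.71 at 6 h and from -2.02 to 0.36 at 24 h. In the second list they ran from -1.17 to 0.13 and from -0.65 to 0.81. The part of these markers in the results that follow was not tested.

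The members spanned a wide range of transcript levels. Divided by the length of the canonical GENCODE transcript, the mean level in DMSO at 6 h was highest for HNRNPA1, at 624 CPM per kilobase, followed by HNRNPAB (557), HNRNPA2B1 (479), HNRNPK (415) and HNRNPC (334). SRSF9 and SRSF2 were the most abundant SR genes on this scale (213 and 199 CPM per kilobase), TRA2B stood at 83.3, and the kinase CLK3 at 24.8. SRSF12 was the lowest tested member, at 0.145 CPM per kilobase. All 44 members together took 1.75 to 1.78% of the counts on genes in DMSO at 6 h and 1.65 to 1.71% in NXP800 at 6 h. At 24 h the share was 1.54 to 1.59% in DMSO and 1.28 to 1.38% in NXP800. The ranges of treated and control libraries were apart at both times, and no test was run on this share. In bulk RNA, fewer cells with a transcript and less transcript per cell cannot be told apart.

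At 6 h, 8 of the 39 tested members rose and 10 fell under NXP800 (edgeR's quasi-likelihood test, Benjamini-Hochberg adjusted p below 0.05 over all 15979 genes tested). These are 20.5% and 25.6% of the members, beside a background of 25% of all tested genes called increased and 27.8% called decreased, and the 18 calls are 46.2% of the members where 52.8% of all genes were called. At 24 h, 4 members rose and 21 fell, or 10.3% and 53.8%, beside a background of 27.5% increased and 28.6% decreased. The 25 calls at 24 h are 64.1% of the members, and 56% of all genes were called. The median log2 fold change of the members was -0.10 at 6 h and -0.24 at 24 h, against -0.046 and -0.0033 over all tested genes. The shift towards lower values was of similar size in the large families at 24 h, with 7 of 12 SRSF genes (median -0.24) and 12 of 21 tested HNRNP genes (median -0.25) called lower. Changes were modest, and SRSF12 was the only member past 2-fold in the fit at either time, where 6.02% of all genes rose and 5.23% fell past 2-fold at 6 h and 6.73% and 7.32% at 24 h. With the replicate number as a block, which fits replicates 1 to 3 of a time point as pairs, 17 members fell and 12 rose at 6 h, beside 33.4% of all genes that fell and 28.9% that rose in that fit. With the 6 libraries of 6 h alone, 13 members rose and 11 fell, beside 29.2% and 27.9% of all genes. With library size as the only scaling, 7 members rose and 17 fell at 24 h, beside 33.3% and 23.4% of all genes.

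Members fell into a few patterns over the 2 times. HNRNPDL, HNRNPM, HNRNPUL1, HNRNPUL2, SRSF2 and SRSF9 (6 members) were called lower at both, where 18.5% of all genes were. CLK3, HNRNPA1L2, SRSF8 and SRSF12 were called higher at both, where 16.5% of all genes were. SRSF10, TRA2A and TRA2B were called higher at 6 h and lower at 24 h, and 2.12% of all genes were called in opposite directions. Another 12 were called lower at 24 h and were not called at 6 h, as were 8.96% of all genes, and 4 were called lower at 6 h and not at 24 h, as were 8.22%. CLK2 was called higher at 6 h and not at 24 h, as were 7.42% of all genes. The remaining 9 were called at neither time, like 28.3% of all genes. Since a call at 1 time and none at the other does not show a difference, the response at 24 h minus the response at 6 h was tested itself. It was higher for 3 members and lower for 10, beside a background of 12% and 13.8% of all genes (33.3% of the members and 25.9% of all genes in either direction), and with library size as the only scaling it was lower for 7 members, beside 10.5% of all genes. Without DMSO 6 h replicate 1, or without NXP800 24 h replicate 3, it was lower for 6 members. Over all genes it was then lower for 1913 and 2006, against 2207 with all 12 libraries. With the replicate block it was lower for 17, beside 20.9% of all genes, the additions being HNRNPA1 (-0.30, adjusted p = 0.0141), HNRNPC (-0.22, 0.0220), HNRNPD (-0.34, 0.00404), HNRNPL (-0.26, 0.0243), HNRNPM (-0.22, 0.0170), HNRNPR (-0.23, 0.0420) and SRSF3 (-0.27, 0.00418), and higher for 1 more, HNRNPH3 (0.26, 0.0215).

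**Figure D1:**
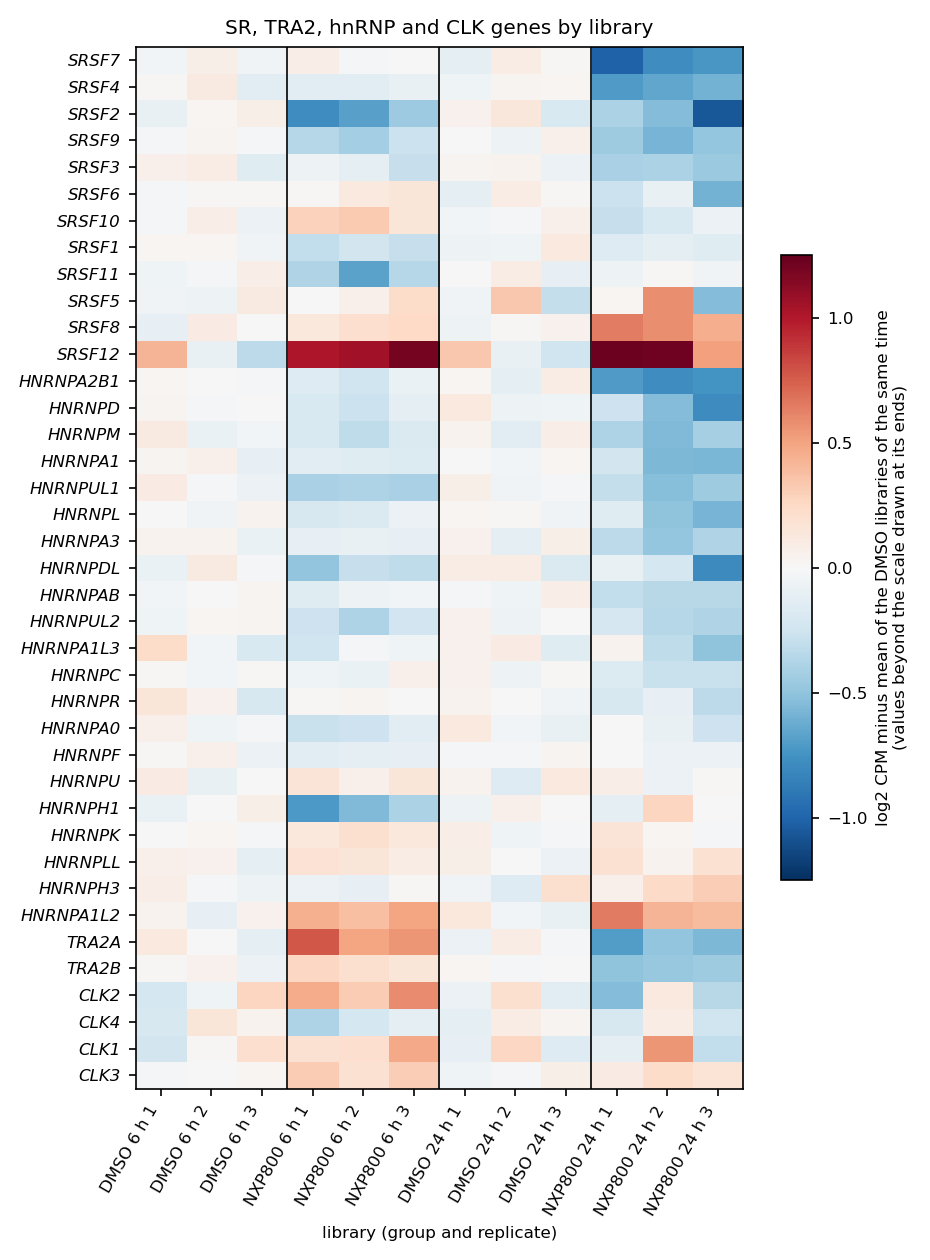
Log2 CPM of each tested member in each of the 12 libraries, minus the mean of the 3 DMSO libraries of the same time point, in red above and in blue below that mean. The 3 NXP800 libraries at 24 h are blue for most SRSF and HNRNP genes, and TRA2A and TRA2B turn from red at 6 h to blue at 24 h.

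The promoters of the 3 members with an entry whose responses differed at the lowest p-values (TRA2B, SRSF7 and HNRNPA2B1) are shown so that their sequences can be read beside the values that follow. TRA2A, HNRNPA1, SRSF2 and HNRNPA1L3 have no entry. They run from 250 bases before to 50 bases after the gene start in the RefSeq annotation of GRCh38.p14, all on the minus strand, at chr3:185937965-185938264 (TRA2B), chr2:38751445-38751744 (SRSF7) and chr7:26200697-26200996 (HNRNPA2B1), 5′ to 3′. Capitals mark matches to the motifs named after them.
TRA2B: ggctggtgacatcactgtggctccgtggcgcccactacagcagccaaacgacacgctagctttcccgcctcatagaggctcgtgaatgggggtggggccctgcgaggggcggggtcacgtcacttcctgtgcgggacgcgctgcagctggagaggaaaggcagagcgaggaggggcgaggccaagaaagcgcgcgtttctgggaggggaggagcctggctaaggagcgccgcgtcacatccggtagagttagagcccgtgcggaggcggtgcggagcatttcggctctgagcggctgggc
SRSF7: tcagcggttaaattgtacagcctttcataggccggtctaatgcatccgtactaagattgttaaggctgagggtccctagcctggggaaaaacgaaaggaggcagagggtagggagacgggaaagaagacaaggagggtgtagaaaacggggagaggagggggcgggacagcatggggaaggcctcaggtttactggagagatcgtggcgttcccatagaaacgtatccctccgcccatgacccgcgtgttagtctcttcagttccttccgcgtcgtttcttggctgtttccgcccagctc
HNRNPA2B1: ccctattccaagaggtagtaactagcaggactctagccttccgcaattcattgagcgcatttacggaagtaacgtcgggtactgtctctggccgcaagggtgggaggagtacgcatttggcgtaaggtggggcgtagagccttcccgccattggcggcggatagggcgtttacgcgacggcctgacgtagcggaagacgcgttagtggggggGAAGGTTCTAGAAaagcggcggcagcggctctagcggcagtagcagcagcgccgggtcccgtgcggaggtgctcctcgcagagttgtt
Of the 39 tested members, 35 had a promoter in this table. Both strands were searched for the cyclic AMP response element TGACGTCA, for TGATGNAA, the core of the amino acid response element, and for the paired heat shock repeats TTCNNGAA and GAANNTTC. TGACGTCA was found in 0 of the 35, against 1.85% of all 35116 promoters of the table and 3.17% of the 12235 promoters of tested genes. TGATGNAA was found in 0, against 3.62% of all promoters and 1.86% of those of tested genes. TTCNNGAA was found in 1 (2.86%, HNRNPA2B1), against 7.74% and 5.86%, and GAANNTTC in 3 (8.57%, HNRNPA2B1, HNRNPC and SRSF8), against 6.77% and 4.77%. In HNRNPA2B1 the matches overlap, from 38 to 31 bases and from 33 to 26 bases before the gene start. The letters are a description of these windows and say nothing on binding.

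TRA2A and TRA2B, the SR-like homologues of the fly sex-determination factor transformer-2, rose at 6 h and fell at 24 h. TRA2A stood at 116, 107 and 97.9 CPM in replicates 1 to 3 of DMSO at 6 h and at 182, 150.2 and 156 CPM under NXP800. At 24 h it stood at 80.9, 91.2 and 84.2 CPM in DMSO and 52.4, 60.5 and 57.7 CPM under NXP800. Every treated library was thus above every control library at 6 h, and every treated library was below at 24 h. This gave a log2 fold change of 0.61 (SE 0.083, adjusted p = 1.47e-05) at 6 h and one of -0.59 (SE 0.085, adjusted p = 2.27e-05) at 24 h by edgeR's quasi-likelihood test. The second response was lower than the first by a log2 difference of -1.20 (SE 0.12, adjusted p = 4.32e-06), the largest difference in size among all 39 tested members. In the fit its level was 52.5% higher at 6 h and fell by 33.4% at 24 h.

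TRA2B, the paralogue with the higher level per kilobase, moved the same way with a smaller rise. Its CPM values were 352, 361 and 331 in DMSO and 418, 399 and 387 under NXP800 at 6 h, then 328, 318 and 319.7 in DMSO and 226, 231 and 236 under NXP800 at 24 h. Again the groups did not overlap at either time. The log2 fold change was 0.20 at 6 h (SE 0.057, adjusted p = 0.00689) and -0.48 at 24 h (SE 0.058, adjusted p = 3.29e-06), a difference of -0.68 (SE 0.081, adjusted p = 2.09e-05).

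SRSF10, an SR protein known as a splicing repressor when dephosphorylated, as after heat shock, also rose and then fell. It read 163, 174 and 157 CPM in DMSO against 201, 206 and 183 CPM under NXP800 at 6 h, and 118, 119.9 and 127 against 99.3, 106 and 116 CPM at 24 h. Treated libraries were above all controls at 6 h and below all of them at 24 h, with the 24 h groups close together. The rise was a log2 fold change of 0.26 (SE 0.069, adjusted p = 0.00519). The later value of -0.18 (SE 0.070, adjusted p = 0.0346) was near the threshold, and was not called without DMSO 24 h replicate 2, DMSO 24 h replicate 3, NXP800 24 h replicate 1 or NXP800 24 h replicate 2 (adjusted p = 0.0542 to 0.146), nor with library size as the only scaling, without the filter on low counts, with the 6 libraries of 24 h alone or by DESeq2's Wald test. The difference between the responses was -0.44 (SE 0.098, adjusted p = 0.00383) and was called under every alternative run.

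**Figure D2:**
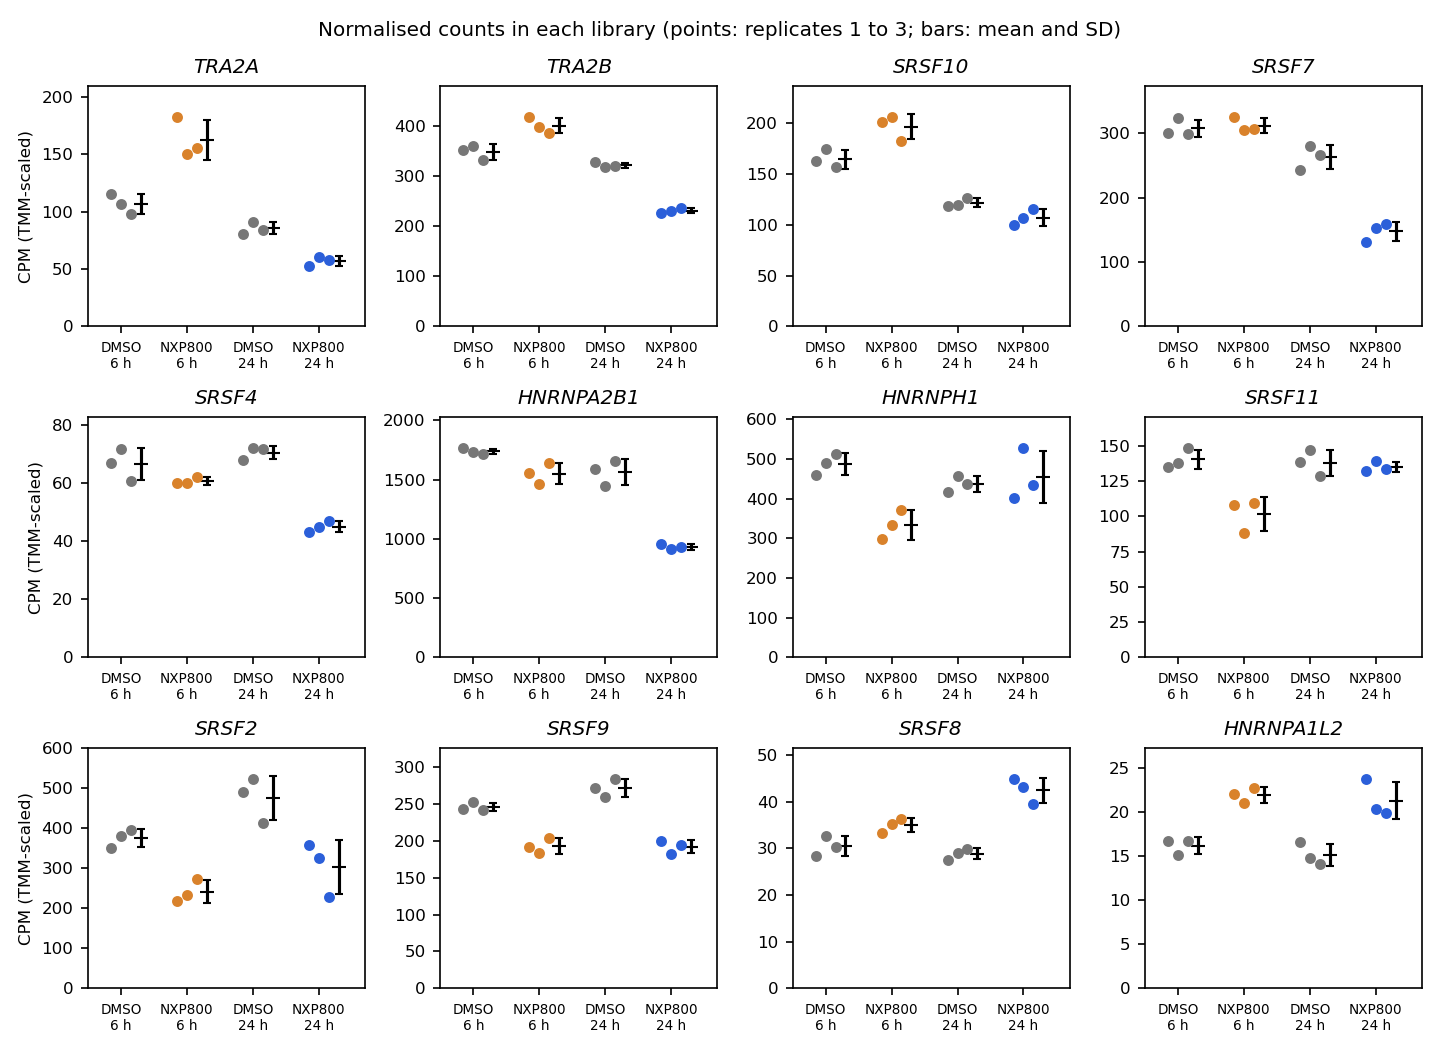
CPM scaled by TMM, on a linear axis from 0, for 12 members in each library: points are replicates 1 to 3 from left to right, and bars give the mean and SD of each group. TRA2A, TRA2B and SRSF10 rise at 6 h and fall at 24 h, SRSF7, SRSF4 and HNRNPA2B1 are lower mainly at 24 h, and HNRNPH1 and SRSF11 are lower at 6 h and overlap with DMSO at 24 h.

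Among the SR genes, SRSF7 and SRSF4 had the largest falls at 24 h. SRSF7, an SR protein that also takes part in mRNA export, read 301, 324 and 299 CPM in DMSO and 325, 305 and 306 CPM under NXP800 at 6 h. At 24 h it read 243, 281 and 266 CPM in DMSO and 131, 153 and 159 CPM under NXP800. The groups overlapped at 6 h and were far apart at 24 h, when the fitted level fell by 43.9%. By edgeR's quasi-likelihood test the log2 fold change was 0.021 at 6 h (adjusted p = 0.833) and -0.84 at 24 h (SE 0.077, adjusted p = 1.58e-07), a difference of -0.86 (SE 0.11, adjusted p = 3.47e-05). SRSF4, a larger SR protein with a long arginine-serine tail, read 67.7, 71.9 and 71.8 CPM in DMSO at 24 h and 43.1, 44.8 and 46.8 CPM under NXP800, after 66.9, 71.6 and 60.6 and 60.1, 59.8 and 62.2 CPM at 6 h. Its groups overlapped at 6 h and stood apart at 24 h, the later change being -0.65 on the log2 scale (SE 0.067, adjusted p = 6.15e-07), with a difference of -0.52 between the responses (adjusted p = 8.27e-04). At 6 h it changed by -0.13 (adjusted p = 0.117), which was called without DMSO 6 h replicate 3.

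SRSF3 and SRSF6 were also called lower at 24 h and not at 6 h. SRSF3, a small SR protein of mRNA export and splicing, changed by -0.42 (adjusted p = 2.14e-04) at 24 h and by -0.16 (adjusted p = 0.101) at 6 h. With the replicate block the 6 h change of SRSF3 was called too (adjusted p = 0.00822), as was the difference between its responses of -0.27 (adjusted p = 0.0862 without the block and 0.00418 with it). SRSF6 read 193, 219 and 154 CPM under NXP800 at 24 h, against 216, 249 and 235 in DMSO, so replicate 3 was much the lowest and the groups overlapped. Its change of -0.31 (adjusted p = 0.0125) was not called without DMSO 24 h replicate 2 or NXP800 24 h replicate 3 (adjusted p = 0.0554 to 0.0620). It was also lost with library size as the only scaling or with the 6 libraries of 24 h alone. An unnamed gene on the same strand overlaps 15.02% of its canonical exons.

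SRSF2 and SRSF9 were lower at both times. SRSF2, an SR protein mutated in some myeloid neoplasms and found in nuclear speckles, read 351, 379.8 and 394 CPM in DMSO and 218, 234 and 273 CPM under NXP800 at 6 h. At 24 h the values were 489.5, 522 and 414 CPM in DMSO and 359, 325 and 227 CPM under NXP800. Replicate 3 was the lowest in both 24 h groups, and treated libraries were below all controls at each time. The log2 fold change was -0.63 (SE 0.13, adjusted p = 7.78e-04) at 6 h and -0.65 (SE 0.13, adjusted p = 5.72e-04) at 24 h. The difference between them was -0.013, with an adjusted p of 0.973. SRSF9 went from 243, 252 and 242 to 192, 183 and 204 CPM at 6 h and from 272, 259.5 and 283 to 199, 182 and 195 CPM at 24 h, without overlap. This gave -0.35 (adjusted p = 1.75e-04) and -0.50 (adjusted p = 4.02e-06) on the log2 scale. Exons of SRSF2 and SRSF9 overlap other annotated genes over 30.1% and 42.6% of their canonical length, nearly all on the other strand (0.794% and 0% on the same strand), so their counts are less certain if strand was not used in counting.

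SRSF1 and SRSF11 were called lower at 6 h and not at 24 h. SRSF1, the founding SR protein and a known oncogene, read 584, 584 and 559.7 CPM in DMSO and 466, 490.2 and 473 CPM under NXP800 at 6 h, with no overlap and a log2 change of -0.27 (SE 0.064, adjusted p = 0.00181). At 24 h its change was -0.14 (adjusted p = 0.0672), and with the replicate block it was called (adjusted p = 0.0245). Unnamed annotated genes on the same strand overlap 31.6% of the canonical exons of SRSF1, which leaves its counts uncertain. SRSF11, which binds near the branch site, fell from 135, 138 and 148 to 108, 88.0 and 109.6 CPM at 6 h. At 24 h it stood at 139, 147 and 129 CPM in DMSO and 132, 139 and 133 CPM under NXP800, where the groups overlapped. Its log2 fold change was -0.46 at 6 h (SE 0.079, adjusted p = 1.28e-04) and -0.032 at 24 h (adjusted p = 0.746), and the response at 24 h was higher by 0.43 (adjusted p = 0.00980).

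A pair of SR genes rose at both times. SRSF8, which arose as a retrotransposed copy of SRSF2, read 27.5, 29.1 and 29.9 CPM in DMSO at 24 h and 44.8, 43.1 and 39.5 CPM under NXP800, 47.3% higher in the fit and without overlap. At 6 h the values were 28.4, 32.7 and 30.3 and 33.3, 35.3 and 36.2 CPM, all treated libraries again above the controls. The log2 fold changes were 0.20 (adjusted p = 0.0354) at 6 h and 0.56 (adjusted p = 9.47e-06) at 24 h. The smaller one was not called without DMSO 6 h replicate 1, DMSO 6 h replicate 3, NXP800 6 h replicate 2 or NXP800 6 h replicate 3 (adjusted p = 0.0793 to 0.164), nor without the filter on low counts. The difference of 0.36 (adjusted p = 0.0191) was not called without DMSO 6 h replicate 2 or NXP800 6 h replicate 1 (adjusted p = 0.0568 to 0.0576). SRSF12 is a repressor of splicing and was present at a low level, 0.697, 0.473 and 0.395 CPM in DMSO and 1.07, 1.10 and 1.23 CPM under NXP800 at 6 h. At 24 h it stood at 0.334, 0.235 and 0.206 CPM in DMSO, from 10, 7 and 6 counts. Under NXP800 it then stood at 0.660, 0.658 and 0.383 CPM, from 20, 21 and 12 counts, so the groups nearly touched. SRSF12 rose by 1.12 (adjusted p = 0.00290) at 6 h and by 1.12 (adjusted p = 0.0125) at 24 h. The later call rests on these low counts and was lost without DMSO 24 h replicate 3 (adjusted p = 0.0514). SRSF5 was called at neither time, and its libraries were spread widely at 24 h (100.4, 131 and 84.4 CPM in DMSO, 105, 155 and 71.3 CPM under NXP800), with replicate 2 highest and replicate 3 lowest in both groups.

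HNRNPA2B1 had the largest fall of the hnRNPs at 24 h. It is an abundant RNA-binding protein of splicing, mRNA transport and microRNA sorting. Its level was 1588, 1446 and 1660.4 CPM in DMSO at 24 h and 956, 911 and 928 CPM under NXP800, and the fitted level fell by 40.5%. At 6 h it was 1765, 1733 and 1717 CPM in DMSO and 1552, 1462 and 1639.8 CPM under NXP800. Treated libraries were below all controls at both times, by a far wider gap at 24 h. The log2 fold change was -0.75 at 24 h (SE 0.071, adjusted p = 2.15e-07 by edgeR's quasi-likelihood test). At 6 h it was -0.16 (adjusted p = 0.0605, and 0.0143 with the replicate block). The 6 h change was also called with library size as the only scaling. The same held without NXP800 6 h replicate 3, DMSO 24 h replicate 2 or NXP800 24 h replicate 1. The responses differed by -0.58 (SE 0.099, adjusted p = 5.01e-04).

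HNRNPD and HNRNPM came next in size at 24 h. HNRNPD, also called AUF1, binds AU-rich elements and controls mRNA decay. Its CPM values at 24 h were 473, 415 and 419.7 in DMSO and 364, 299 and 253 under NXP800, and at 6 h they were 492, 474 and 479 and 421, 400.1 and 445. The groups were apart at both times, with the widest spread under NXP800 at 24 h. The change was -0.51 (adjusted p = 3.60e-04) at 24 h and -0.19 (adjusted p = 0.12) at 6 h. The latter was called with the replicate block (adjusted p = 0.00927), as was the difference of -0.32 (adjusted p = 0.103 without and 0.00404 with the block). The 6 h change of HNRNPD was also called without the filter on low counts and with the 6 libraries of 6 h alone. Leaving out NXP800 24 h replicate 1 called it as well. HNRNPM, a regulator of alternative exons in epithelial-mesenchymal transition, went from 660.3, 585 and 676 to 489, 437 and 479 CPM at 24 h and from 685, 598 and 620.1 to 555, 509 and 559 CPM at 6 h. It changed by -0.45 (adjusted p = 9.80e-05) at 24 h, and by -0.23 (adjusted p = 0.0181) at 6 h, a call lost without DMSO 6 h replicate 1 or NXP800 6 h replicate 2 (adjusted p = 0.0891 to 0.103).

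HNRNPA1, the most abundant member per kilobase and a general antagonist of SR proteins, read 2392, 2319 and 2423 CPM in DMSO and 2022, 1615 and 1605 CPM under NXP800 at 24 h. All treated libraries were below the controls, replicate 1 by the least, with a log2 change of -0.44 (adjusted p = 3.69e-04). At 6 h the change was -0.16 (adjusted p = 0.143), and it was called with the block (adjusted p = 0.0449). Of the other hnRNPs called lower at 24 h and not at 6 h, HNRNPL, which binds CA repeats, changed by -0.40 (adjusted p = 0.00122), HNRNPA3 by -0.39 (adjusted p = 1.39e-04), HNRNPAB by -0.33 (adjusted p = 2.74e-04) and HNRNPC, which binds uridine tracts and keeps cryptic exons silent, by -0.24 (adjusted p = 0.00535). HNRNPL was called at 6 h with the block (-0.15, adjusted p = 0.0443). Another annotated gene on the same strand overlaps 26.2% of the canonical exons of HNRNPL. HNRNPR changed by -0.21 (adjusted p = 0.0386), and this call was lost without DMSO 24 h replicate 1, DMSO 24 h replicate 2, DMSO 24 h replicate 3, NXP800 24 h replicate 1 or NXP800 24 h replicate 3 (adjusted p = 0.0501 to 0.156), with library size as the only scaling and with the 6 libraries of 24 h alone. Differences between the responses were called for HNRNPA3 (-0.29, adjusted p = 0.0363) and HNRNPAB (-0.25, adjusted p = 0.0491), each at the edge of the threshold. The first was lost without any 1 library other than DMSO 6 h replicate 2, DMSO 24 h replicate 2 and NXP800 24 h replicate 1 (adjusted p = 0.0528 to 0.0889 over 9 libraries), and without the filter on low counts. The second was lost without any 1 library other than DMSO 24 h replicate 2 and NXP800 24 h replicate 1 (adjusted p = 0.0503 to 0.124 over 10 libraries), and also with DESeq2's size factors, with library size as the only scaling and without the filter on low counts. Exons of HNRNPA3 overlap a gene on the other strand over 59.9% of its canonical length.

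HNRNPUL1, HNRNPUL2 and HNRNPDL fell at both times by similar amounts. HNRNPUL1, which acts in transcription and the response to DNA breaks, went from 454, 418 and 402 to 319.8, 325 and 321 CPM at 6 h and from 592, 546 and 553 to 458, 389 and 415 CPM at 24 h. No treated library reached a control at either time, and the changes were -0.40 (adjusted p = 1.68e-04) and -0.42 (adjusted p = 8.48e-05). For its paralogue HNRNPUL2 they were -0.29 (adjusted p = 0.00139) and -0.31 (adjusted p = 7.59e-04), with the limit that a readthrough gene, HNRNPUL2-BSCL2, itself at 0 counts in every library, covers 45.9% of its canonical exons. HNRNPDL, a relative of HNRNPD, read 349, 401 and 364 CPM in DMSO and 263, 303 and 297 CPM under NXP800 at 6 h, then 297, 298 and 245 and 261, 240.2 and 161 CPM at 24 h. Replicate 3 was lowest in both 24 h groups, and the treated and control ranges overlapped there. The changes of HNRNPDL were -0.37 (adjusted p = 0.0271) at 6 h and -0.34 (adjusted p = 0.0362) at 24 h. They were not called without DMSO 6 h replicate 2 or NXP800 6 h replicate 1 (adjusted p = 0.100 to 0.109) at 6 h and without DMSO 24 h replicate 1, DMSO 24 h replicate 2 or NXP800 24 h replicate 3 (adjusted p = 0.0982 to 0.171) at 24 h, nor at 24 h with library size as the only scaling or with the 6 libraries of 24 h alone.

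HNRNPH1, which binds runs of guanines, was lower at 6 h and not at 24 h. Its level was 459.6, 489 and 514 CPM in DMSO and 297, 333 and 371 CPM under NXP800 at 6 h, and 418, 457 and 437 and 401, 527 and 435 CPM at 24 h. The 6 h groups were apart, and the 24 h groups overlapped, with NXP800 replicate 2 the highest. It changed by -0.55 (adjusted p = 1.63e-04) at 6 h and by 0.055 (adjusted p = 0.646) at 24 h, so that the response at 24 h was higher by 0.60 (SE 0.14, adjusted p = 0.00396). HNRNPA0 was called lower at 6 h, by -0.22 (adjusted p = 0.0226), a call lost without DMSO 6 h replicate 1, NXP800 6 h replicate 1 or NXP800 6 h replicate 2 (adjusted p = 0.0771 to 0.0897). HNRNPA1L2, a retrotransposed copy of HNRNPA1, was the hnRNP that rose, from 16.8, 15.1 and 16.8 to 22.1, 21.0 and 22.8 CPM at 6 h and from 16.6, 14.8 and 14.2 to 23.8, 20.4 and 19.9 CPM at 24 h. Treated libraries were above all controls, with changes of 0.44 (adjusted p = 7.62e-04) and 0.49 (adjusted p = 2.76e-04). Its sequence is close to that of HNRNPA1 and it lies wholly within another annotated gene, so its reads are uncertain. Reads aligned to several places made up 1.86 to 1.99% of a library at 6 h and 2.96 to 3.37% at 24 h, when all NXP800 libraries were above all DMSO libraries, and their part in this rise was not tested. HNRNPF, HNRNPH3, HNRNPK, HNRNPLL, HNRNPU and HNRNPA1L3 were called at neither time, with log2 changes of -0.12 to 0.16 at 6 h and -0.25 to 0.20 at 24 h. With the replicate block, HNRNPF (-0.12, adjusted p = 0.0444), HNRNPK (0.16, 0.0112), HNRNPU (0.13, 0.0466) and HNRNPLL (0.14, 0.0260) were called at 6 h. At 24 h the block called HNRNPH3 (0.21, adjusted p = 0.00670), HNRNPLL (0.14, 0.0254), HNRNPA0 (-0.12, 0.0486) and HNRNPA1L3 (-0.25, 0.0374). Outside the block, HNRNPH3 at 24 h was also called by DESeq2's Wald test, under both other scalings and both other filters. Leaving out DMSO 24 h replicate 3 or NXP800 24 h replicate 1 called it as well. HNRNPK at 6 h was also called by DESeq2's Wald test, with library size only and with the 6 libraries of 6 h alone. The same held without NXP800 24 h replicate 1 or replicate 2. Some alternatives likewise called HNRNPLL at both times, HNRNPU at 6 h, and HNRNPK and HNRNPA1L3 at 24 h.

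HNRNPH2, a close relative of HNRNPH1, was read at 0 to 2 counts per library and its level is uncertain. It shares exons with the readthrough gene RPL36A-HNRNPH2, which had 0 counts in all 12 libraries, and RPL36A, a ribosomal protein gene under the same readthrough, had only 5 to 15. Reads that fit several genes were set apart by the counter, at 2.10 to 2.43% of a library, and whether those of HNRNPH2 were among them was not tested.

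Of the CLK kinases, which phosphorylate SR proteins, CLK3 and CLK2 were called. CLK3 read 45.3, 45.8 and 46.9 CPM in DMSO and 57.5, 52.6 and 57.1 CPM under NXP800 at 6 h, and 57.7, 59.6 and 63.0 against 64.5, 70.6 and 67.8 CPM at 24 h, with every treated library above every control. Its log2 change was 0.28 (adjusted p = 0.00157) at 6 h and 0.17 (adjusted p = 0.0286) at 24 h. The smaller rise at 24 h was not called without DMSO 24 h replicate 1, DMSO 24 h replicate 2, NXP800 24 h replicate 2 or NXP800 24 h replicate 3 (adjusted p = 0.0521 to 0.111), nor without the filter on low counts. CLK2 read 9.25, 10.4 and 13.0 CPM in DMSO and 14.9, 13.5 and 16.2 CPM under NXP800 at 6 h, then 12.9, 15.6 and 12.4 and 9.31, 14.8 and 10.7 CPM at 24 h. The treated libraries were above all controls at 6 h and overlapped them at 24 h. Its 6 h change of 0.45 (adjusted p = 0.0248) was lost without DMSO 6 h replicate 1, DMSO 6 h replicate 2, NXP800 6 h replicate 1 or NXP800 6 h replicate 3 (adjusted p = 0.0561 to 0.116). At 24 h it changed by -0.24 (adjusted p = 0.218), called with the replicate block (adjusted p = 0.0248), and the responses differed by -0.68 (adjusted p = 0.0332), which was not called without any 1 library other than DMSO 6 h replicate 3, NXP800 6 h replicate 2, DMSO 24 h replicate 1, DMSO 24 h replicate 3 and NXP800 24 h replicate 2 (adjusted p = 0.0630 to 0.0889 over 7 libraries) or with library size as the only scaling.

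CLK1, the founding kinase of the family, read 23.5, 28.0 and 32.0 CPM in DMSO and 31.6, 32.0 and 38.5 CPM under NXP800 at 6 h, where the highest control was above the lowest treated library, and at 24 h NXP800 replicate 2 (31.8 CPM) and DMSO replicate 2 (25.9 CPM) were each the highest of their group. Its change was 0.29 (adjusted p = 0.181) at 6 h, called with the replicate block (adjusted p = 0.00221), and 0.081 (adjusted p = 0.722) at 24 h. The 6 h change of CLK1 was also called without the filter on low counts and with the 6 libraries of 6 h alone. Leaving out NXP800 24 h replicate 2 called it as well. CLK4 changed by -0.24 (adjusted p = 0.0807) at 6 h, likewise called with the block (adjusted p = 0.00851), and by -0.11 (adjusted p = 0.426) at 24 h. The kinases outside the CLK family were taken from a list of 5 tested genes of SR protein phosphorylation and import, of which 1 rose and 2 fell at each time. SRPK1, the cytoplasmic SR protein kinase, fell by 0.37 (adjusted p = 3.77e-05) at 6 h and by 0.37 (adjusted p = 3.28e-05) at 24 h on the log2 scale. PRPF4B, a kinase of the spliceosome, changed by -0.48 (adjusted p = 1.86e-04) and -0.39 (adjusted p = 0.00105), and DYRK1A by 0.54 (adjusted p = 2.52e-05) and 0.29 (adjusted p = 0.00464).

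The rest of the splicing machinery was read from 6 further lists, beside which the median over all tested genes was -0.046 at 6 h and -0.0033 at 24 h, and the shares called higher and lower were 25% and 27.8% at 6 h and 27.5% and 28.6% at 24 h. Of 12 tested proteins of the U1 and U2 particles and the Sm ring, 9 fell and 1 rose at 6 h, and 11 fell and 0 rose at 24 h, with medians of -0.30 and -0.43. Among them SNRNP70, the U1 protein that SR proteins contact, changed by -0.65 (adjusted p = 4.64e-06) at 6 h, SNRPA1 of the U2 particle by -0.79 (adjusted p = 4.42e-08) at 24 h, and the Sm protein SNRPD3 by -0.54 (adjusted p = 2.22e-06) and -0.61 (adjusted p = 4.44e-07). SNRPA, the U1 A protein, rose at 6 h (0.42, adjusted p = 1.24e-04) and fell at 24 h (-0.42, adjusted p = 9.35e-05), and its responses differed by -0.84 (adjusted p = 2.09e-05). Of 16 proteins of the U4/U6.U5 tri-snRNP, 12 fell and 1 rose at 6 h and 13 fell and 0 rose at 24 h (medians -0.22 and -0.26), among them the helicase DDX23, by -0.64 (adjusted p = 4.14e-07) and -0.56 (adjusted p = 1.33e-06), and the cyclophilin PPIH, by -0.70 (adjusted p = 2.37e-07) at 24 h. Of 15 tested factors of the branch site and 3′ splice site, 7 fell and 1 rose at 6 h and 6 fell and 3 rose at 24 h (medians -0.17 and -0.087, the latter 0.00086 with library size as the only scaling), with SF3B3 at -0.43 (adjusted p = 3.37e-05) and -0.35 (adjusted p = 2.10e-04) and SF1, the branch point binding protein, at 0.29 (adjusted p = 8.90e-04) at 24 h. Of 23 genes of the PRP19 complex and the catalytic step, 11 rose and 3 fell at 6 h, with a median of 0.11, and 8 rose and 3 fell at 24 h, with a median of 0.0038. SLU7, a second-step factor, changed by 0.88 (adjusted p = 3.55e-08) and 0.65 (adjusted p = 9.07e-07), PLRG1 by 0.62 (adjusted p = 2.35e-06) and 0.73 (adjusted p = 2.91e-07), and CWC15 by -0.51 (adjusted p = 2.13e-05) and -0.62 (adjusted p = 3.29e-06).

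Of 42 other RNA-binding regulators, 8 rose and 9 fell at 6 h (19.0% and 21.4%, beside 25% and 27.8% of all genes) and 4 rose and 13 fell at 24 h (9.52% and 31.0%, beside 27.5% and 28.6%), with medians of 0.025 and -0.095. TARDBP, the protein TDP-43, changed by -0.56 (adjusted p = 7.29e-07) at 6 h, the stability factor ELAVL1 by -0.48 (adjusted p = 1.76e-05) and -0.43 (adjusted p = 4.91e-05), and KHSRP by -0.41 (adjusted p = 4.83e-05) at 24 h. ESRP1, an epithelial splicing regulator, rose by 2.54 (adjusted p = 2.15e-06) at 6 h and 2.35 (adjusted p = 1.42e-06) at 24 h from a mean of 0.219 and 0.338 CPM in DMSO. Of the epithelial markers, EPCAM changed by 0.81 (adjusted p = 4.85e-06) and KRT8 by -0.65 (adjusted p = 2.69e-05) at 24 h, in opposite directions, and their part in the rise of ESRP1 was not tested. Of 25 tested SR-related proteins, which have arginine-serine stretches and lie outside the SRSF family, 7 rose and 7 fell at 6 h and 3 rose and 8 fell at 24 h (medians -0.097 and -0.083, the latter 0.0092 with library size as the only scaling). NKTR changed by -0.78 (adjusted p = 4.21e-04) and -0.47 (adjusted p = 0.0142), LUC7L3, a U1-associated protein, by -0.69 (adjusted p = 1.11e-04) and -0.57 (adjusted p = 6.14e-04), and SCAF8, which binds the tail of RNA polymerase II, by 0.47 (adjusted p = 7.10e-06) and 0.27 (adjusted p = 0.00112).

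**Figure D3:**
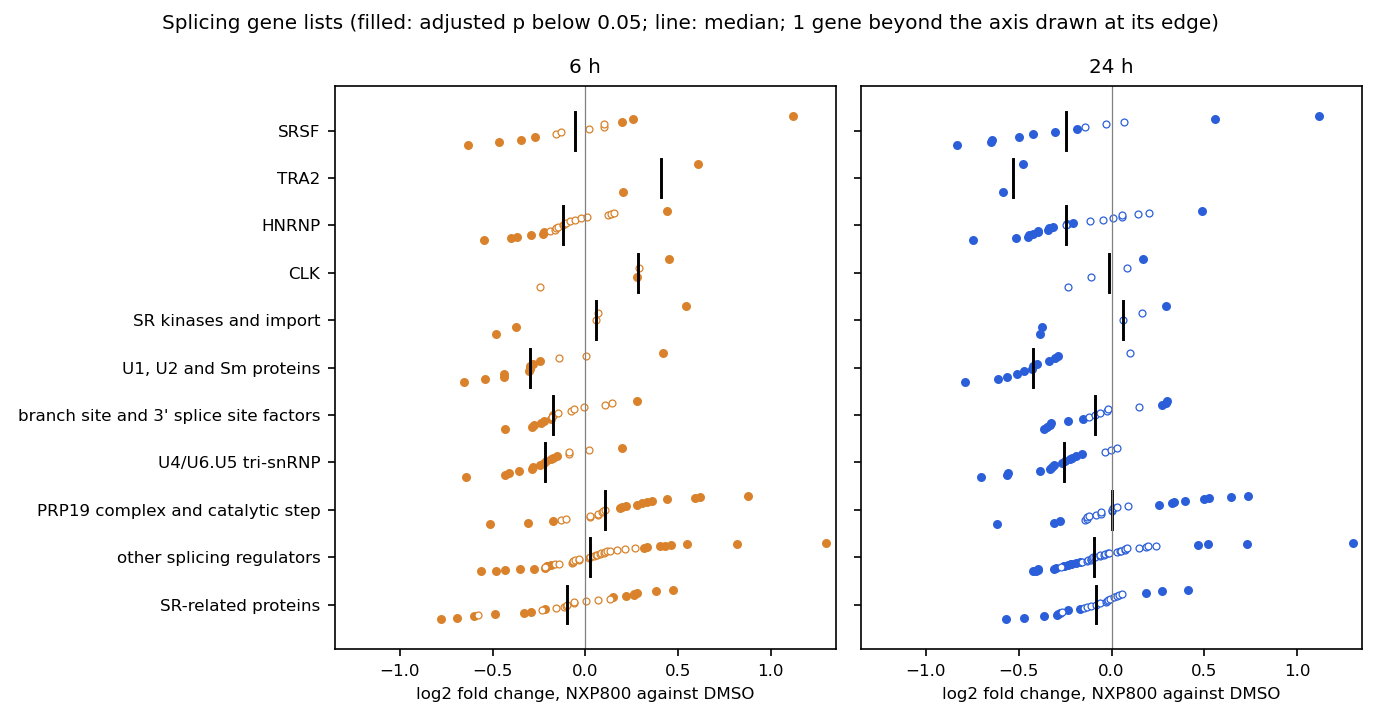
Log2 fold change under NXP800 against DMSO for each tested gene of the 4 families and of 7 further lists of splicing genes, at 6 h (left) and 24 h (right). Filled points passed an adjusted p of 0.05 and black lines mark medians, which lie at -0.24 (SRSF) and -0.25 (HNRNP) at 24 h, and ESRP1 is drawn at the edge of the axis.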

How the data were processed

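Libraries of MNNG/HOS mRNA were prepared with a kit that keeps strand and read as pairs of 100 bases. Deposited are raw counts for each gene symbol, which the authors made with fastp 0.20.1, STAR 2.7.5a and HTSeq 0.12.4 (per the submitters' processing notes) on hg38 with the RefSeq annotation of GRCh38.p14. The strand setting and the rule for reads on several genes are not given in the sources used here, so overlapping and antisense genes are uncertain. The counter's 5 entries without a gene entered neither library sizes nor tests. Replicates differed by more than sampling noise (chi-square 7.95 to 28.6 per degree of freedom), so none was counted as a duplicate. Intervals were not computed, and depth ranged from 30810614 to 31947656 counts per library.

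The analysis used edgeR 4.0.16, limma 3.58.1 and R 4.3.3: filterByExpr kept 15979 of 43236 symbols, scaling was by TMM, and the quasi-likelihood test was run in 1 model of the 4 groups (common dispersion 0.00723). Contrasts were NXP800 against DMSO at 6 h, at 24 h, and the later response minus the earlier. Every adjusted p in the text is Benjamini-Hochberg adjusted over all genes tested, and a call is an adjusted p below 0.05. CPM values are scaled by TMM. Standard errors (SE) were derived as the size of the log2 change divided by the square root of the test's F statistic. They are unreliable for changes close to 0. For SRSF12 the difference of -0.00065 was given an SE of 0.056, against 0.28 at 6 h and 0.35 at 24 h. DESeq2 1.42.0 served as an alternative, beside other scalings, filters, subsets of libraries, a threshold of 0.01 and each library left out in turn. The procedure was also run on simulated data in which 200 genes were changed 2-fold. At 6 h and at 24 h every tested member other than SRSF12 changed by less. Of the differences between the responses, only that of TRA2A (-1.20) was larger. That run does not show how smaller changes are recovered.

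The fit above has no term for the replicate number, so its p-values do not account for pairing, and the fit with the number as a block is an alternative. The numbers did pair the libraries in the data. With group means removed, same-numbered DMSO and NXP800 libraries had a correlation over genes of 0.159 to 0.329, against at most 0.0580 for different numbers. The numbers in the labels are the only source of the pairing, and genes are not independent replicates.

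The members and the lists of other splicing genes and of markers, written from general knowledge, were chosen with earlier results of these data known. Values per library are given for up to 4 called members of each family per time with the largest log2 fold change and a mean log2 CPM of at least 1, and for members called in opposite directions. SRSF5, SRSF6, SRSF12, HNRNPA1 and CLK1 were added after their values were seen. Of each list, up to 2 of the largest calls per direction and time may be named. Transcript lengths, transcript types and exon overlaps are from GENCODE and promoters from RefSeq. No set test was run.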

Additional observations from a re-analysis of the deposited data

Results flagged for a closer look

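The response to NXP800 differed between 6 h and 24 h for 13 members by the test of the difference itself (edgeR's quasi-likelihood test on the response at 24 h minus the response at 6 h, log2 scale). It was lower at 24 h for TRA2A (-1.20, adjusted p = 4.32e-06), SRSF7 (-0.86, adjusted p = 3.47e-05), TRA2B (-0.68, adjusted p = 2.09e-05), CLK2 (-0.68, adjusted p = 0.0332), HNRNPA2B1 (-0.58, adjusted p = 5.01e-04), SRSF4 (-0.52, adjusted p = 8.27e-04), SRSF10 (-0.44, adjusted p = 0.00383), SRSF6 (-0.40, adjusted p = 0.0371), HNRNPA3 (-0.29, adjusted p = 0.0363) and HNRNPAB (-0.25, adjusted p = 0.0491). It was higher at 24 h for HNRNPH1 (0.60, adjusted p = 0.00396), SRSF11 (0.43, adjusted p = 0.00980) and SRSF8 (0.36, adjusted p = 0.0191). Of the 13, 8 kept the call under every alternative run. For SRSF6 (adjusted p = 0.0585 to 0.0896), CLK2, HNRNPA3, HNRNPAB and SRSF8 it was lost on leaving out at least 2 single libraries. For SRSF6 these were every library other than NXP800 6 h replicate 1, DMSO 24 h replicate 1, NXP800 24 h replicate 1 and NXP800 24 h replicate 2. The difference for SRSF6 was also lost with library size as the only scaling.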

How the results depend on the processing

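All counts below are at an adjusted p of 0.05 by edgeR's quasi-likelihood test unless another is named, and the cause of each move was not tested. With the replicate block the members called lower at 6 h were 17, beside 33.4% of all genes. Those with a lower response at 24 h were 17, beside 20.9%, and over all genes 6283 had a different response. The block took away no call of a member, and the calls it added stand in the report. At least 1 other alternative also called CLK1, CLK4, HNRNPA1, HNRNPA2B1, HNRNPD, HNRNPL, SRSF3, SRSF4 and SRSF6 at 6 h, and CLK2 and SRSF1 at 24 h. That was also so for the difference between the responses of HNRNPA1, HNRNPC, HNRNPD, HNRNPH3, HNRNPL and SRSF3. At an adjusted p below 0.01, where fewer calls follow from the threshold itself, 2 members rose at 24 h, beside 3371 of 15979 genes. At that threshold 6 members had a lower response, beside 1290 genes, and 2236 genes had a different response. With the 6 libraries of 6 h alone 13 members rose at 6 h, beside 29.2% of all genes. With library size as the only scaling 7 rose at 24 h, beside 33.3%. That scaling moved the median of all genes by 0.090 at 24 h, and split the genes with a different response into 2463 higher and 1670 lower, against 1925 and 2207 with TMM. Leaving out 1 library at a time gave 6 to 11 members higher and 8 to 14 lower at 6 h, 3 to 5 higher and 17 to 21 lower at 24 h, and 2 to 4 with a higher and 6 to 12 with a lower response. The lowest of the last range, 6, came without DMSO 6 h replicate 1 or NXP800 24 h replicate 3. Over all genes these ranges were 7433 to 8652 calls at 6 h, 8093 to 8982 at 24 h and 3200 to 4154 for the difference. By direction they were 3590 to 4333 genes higher and 3843 to 4549 lower at 6 h. At 24 h they were 3892 to 4397 higher and 4054 to 4585 lower. For the difference they were 1419 to 1862 higher and 1781 to 2292 lower. No called member changed sign under any alternative. Members not called did: HNRNPF (0.045) and SRSF11 (0.058) at 24 h with library size only, and HNRNPC at 6 h (0.0087) with the 6 libraries of that time. On leaving out 1 library at a time, the log2 changes that crossed 0 ranged, at 6 h, from -0.067 to 0.0073 for HNRNPC (also 0.0066), from -0.21 to 0.0042 for HNRNPA1L3, from -0.086 to 0.085 for HNRNPR and from -0.0083 to 0.059 for SRSF7. At 24 h they ranged from -0.071 to 0.075 for HNRNPU (also -0.029), from -0.082 to 0.014 for SRSF11, from -0.23 to 0.30 for SRSF5 (also -0.070), from -0.00050 to 0.098 for HNRNPK, from -0.20 to 0.25 for CLK1 and from -0.039 to 0.14 for HNRNPH1. Standard errors of the members had a median of 0.077 at 6 h, which with 3 libraries a group limits what could be called.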
